A study of Oryzias latipes with 15 samples.

Results

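The genes described are 70 genes of the lysosome, measured by RNA-seq in testis of the fish medaka (Oryzias latipes). They were taken by symbol: the cathepsins except ctsl.1, the subunits and accessory proteins of the proton pump, the lysosomal glycosidases and lipid enzymes, the membrane proteins and cation channels, and the CLN genes of neuronal ceroid lipofuscinosis. They carry 68 distinct symbols among the 23028 genes of the deposited table, and 67 of them had a mean of at least 10 normalized counts over the 15 libraries and entered the tests. The 15 libraries were testis RNA of 5 groups with 3 biological replicates each. The control group received neither agent, the low-dose group received 0.01 mg/L potassium perchlorate (KClO4), and the high-dose group received 10 mg/L KClO4. A further group received 10 mg/L KClO4 together with 3 mg/L vitamin C, and the last received 3 mg/L vitamin C alone. Perchlorate competes with iodide for entry into thyroid cells, and vitamin C acts as an antioxidant. Strain, age and the number of fish behind each replicate are not stated in the labels, so p-values measure the spread between these samples.

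The lysosome is the acidic compartment in which cells break down proteins, sugars and lipids. A proton pump, the V-ATPase, acidifies it. Cathepsins cut the proteins, glycosidases and lipid enzymes take apart glycans and membranes, and membrane proteins and channels carry the products and ions out. In the testis, lysosomes serve the Sertoli cells that engulf dying germ cells and residual cytoplasm. In fish ovaries, cathepsins process the yolk proteins that growing oocytes take up.

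The depth, from whole reads recovered from the deposited values, was 3.21 to 21.3 M reads per library, and 5.48 to 6.19 M in the low-dose libraries. The low-dose libraries stood apart: 13 of 13 oocyte markers found in the table were higher there than in the controls (median log2 fold change 7.74), and 14 of 16 tested spermatid and sperm markers were lower. Of all 17778 genes tested, 24.9% were higher and 22.9% lower. The summed normalized counts of the oocyte markers were 476 to 579 in the controls, 36458 to 447663 at the low dose, 1340 to 2274 at the high dose, 1801 to 2188 at the high dose with vitamin C, and 2525 to 4252 with vitamin C alone. No oocyte marker was at 0 in any library. The 3 low-dose libraries differed widely, with 181918 in replicate 1, 447663 in replicate 2 and 36458 in replicate 3. In bulk tissue, fewer cells of a type and less RNA per cell cannot be told apart.

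At the low dose, 18 of the 67 tested lysosome genes rose against the control and 10 fell, by limma at an adjusted p under 0.05. That is 26.9% higher and 14.9% lower, where 24.9% of all 17778 genes tested were called higher and 22.9% lower. The median log2 fold change of the lysosome genes was 0.22, and that of all genes was -0.01. The rises were led by cathepsin S, a lysosomal cation channel, a small subunit of the proton pump, a second cathepsin S gene and a cholesterol carrier. The falls were smaller than these 5 rises.

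These counts moved with the libraries and the scaling. The main fit pools 1 spread per gene over all 5 groups. The low-dose libraries differed widely, so low-dose p-values can be too small where their spread exceeds the pooled spread. A fit of only the low-dose and control libraries, which has fewer libraries to estimate the spread, called 1905 of all 17778 genes higher and 1345 lower. It called fewer lysosome genes as well, with the counts given in the closing section. A fit with low-dose replicate 3 as the only low-dose library leaves 1 library in the group, so its counts are not given. Without low-dose replicate 3, 28 were higher, as were 5667 of all 17778 genes. The 10 lower genes became 5 without control replicate 1, 6 without control replicate 2 and 6 without low-dose replicate 1. In the same fits, the 4076 lower genes among all genes became 2992, 2907 and 3360. Scaling the libraries on abundant genes (control mean of 500 or more) moved the median of all genes to 0.29 at the low dose and to 0.42 at the high dose. At the low dose it gave 33 lysosome genes higher and 5 lower, where 6105 and 2461 of all 17778 genes were. Quantile normalization moved the low-dose median of all genes to -0.18. Relative to the median of all genes, the median lysosome gene stood 0.23 higher at the low dose under each of these 3 scalings. Scaling on abundant genes uses 1 factor per library, so it could hardly change this difference, whereas quantile normalization could.

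**Figure D1:**
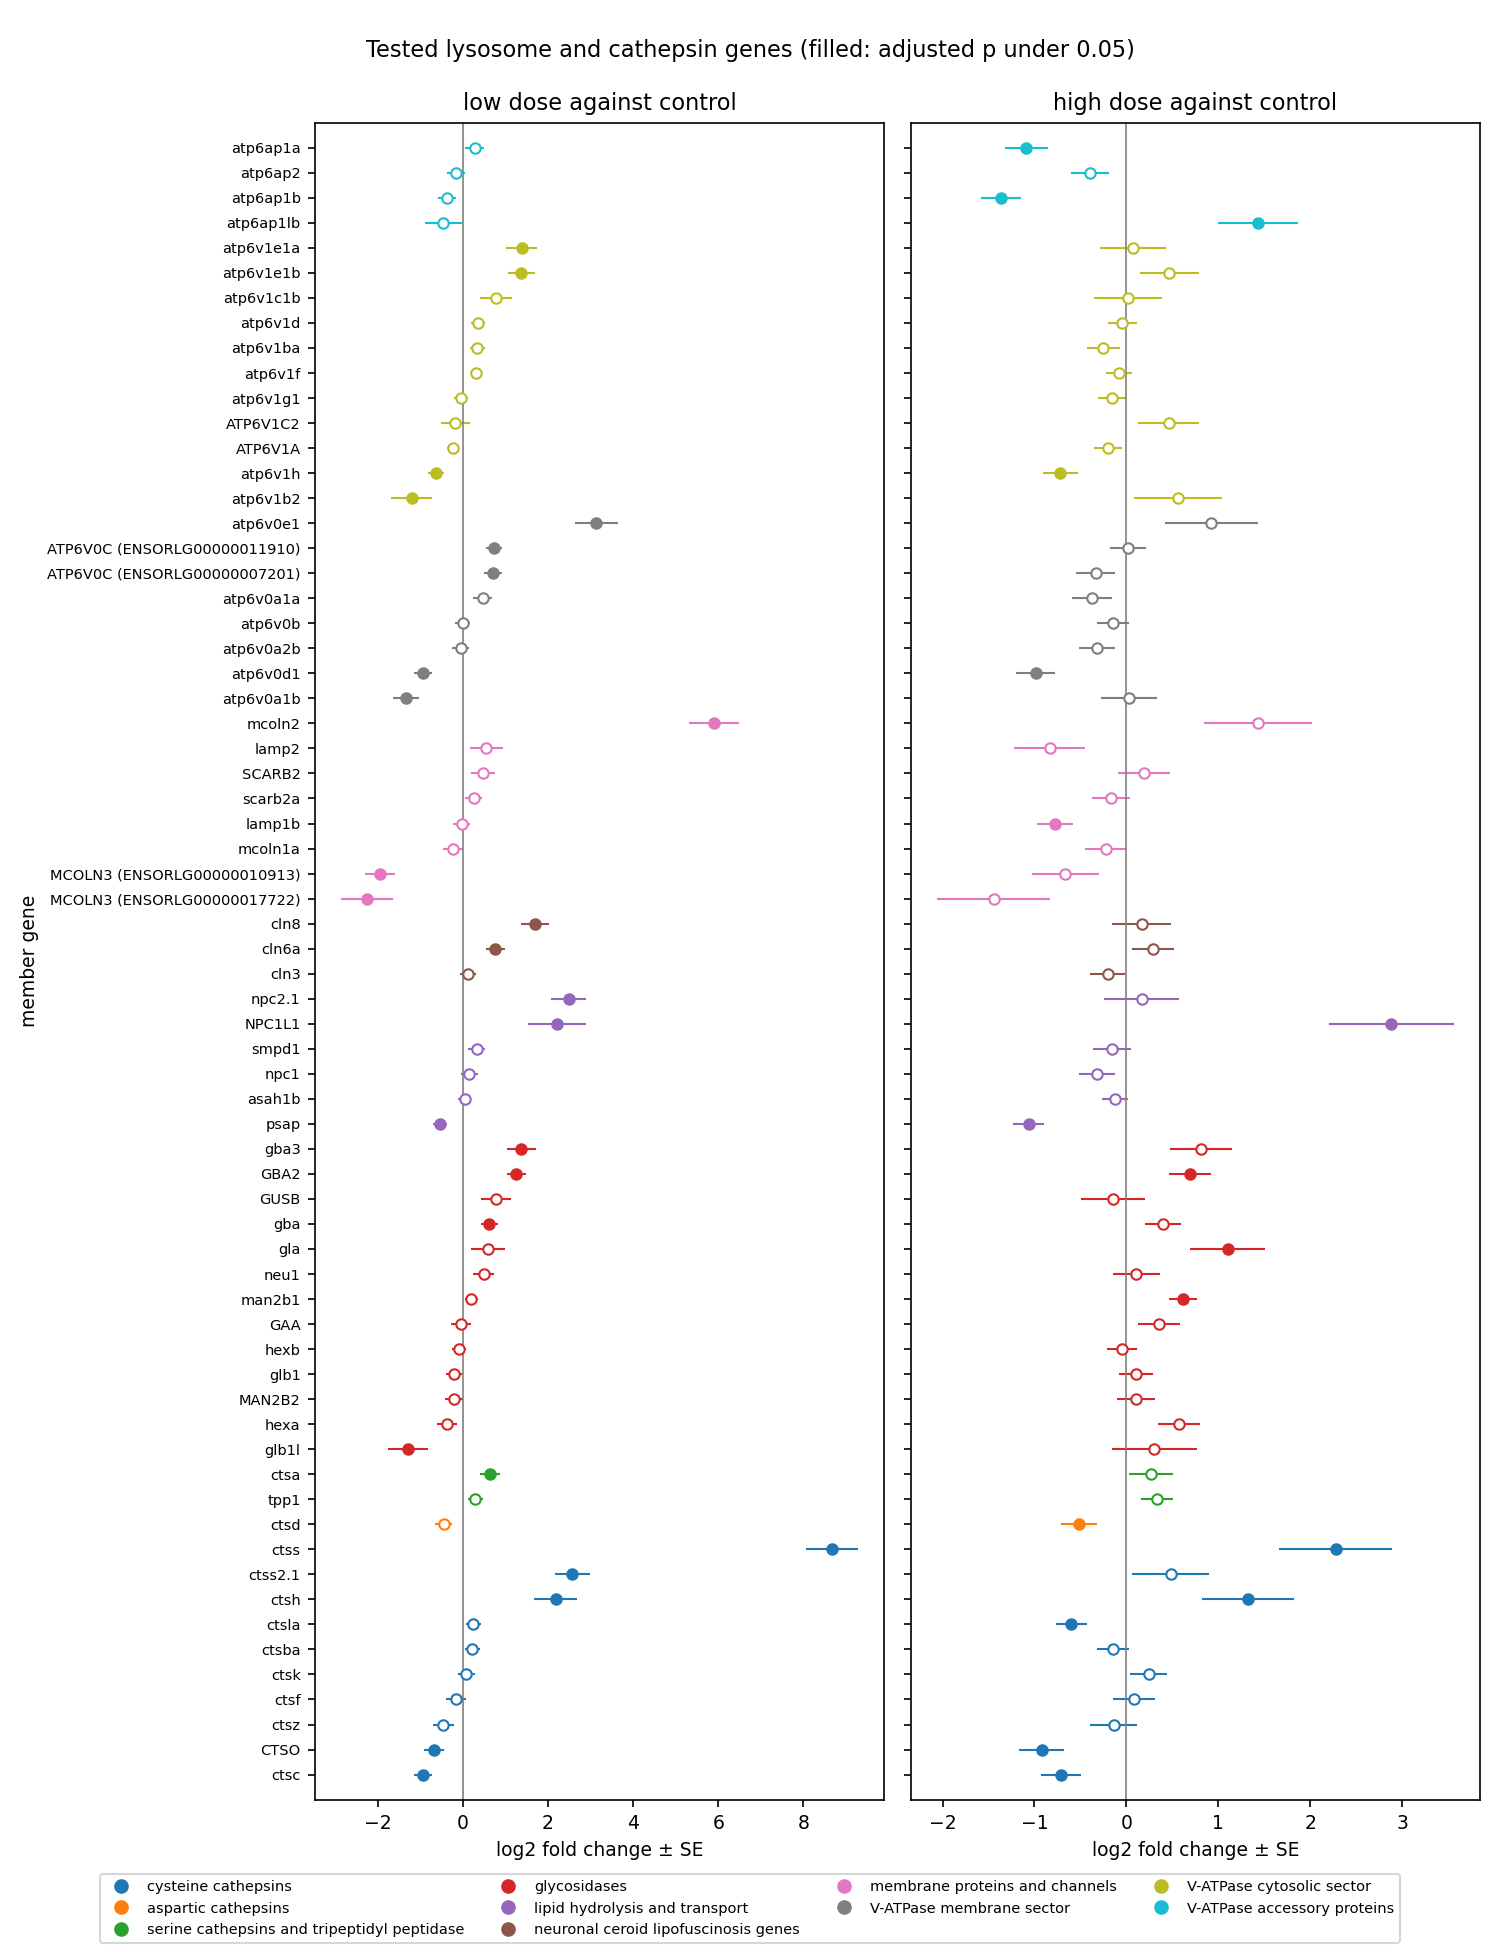
Log2 fold change ± SE of the tested lysosome and cathepsin genes, at the low dose (left) and at the high dose (right) against the control, coloured by role. Filled points passed limma's adjusted p of 0.05, and the horizontal scales of the panels differ. ctss and mcoln2 stand far to the right at the low dose, at 8.67 and 5.90.

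Among the cathepsins, 4 of 12 tested genes rose at the low dose and 2 fell, where 24.9% of all genes rose and 22.9% fell. Cathepsin S, encoded by ctss (ENSORLG00000003145), is a cysteine protease that in mammals is best known for antigen processing in leukocytes. Its normalized counts were 27.6, 54.8 and 27.5 in the controls and 17199, 48094 and 3682 in low-dose replicates 1, 2 and 3. All 3 low-dose libraries were above all controls, and they differed among themselves more than any other group did. The log2 fold change was 8.67 ± 0.61 (SE, limma adjusted p = 7.41e-08). The SE pools the spread of all groups, so it does not measure the low-dose spread alone. With low-dose replicate 3 alone the log2 fold change was 6.69. The rise of ctss at the low dose was known when these genes were chosen and is given as a description. In the other 3 groups ctss was 117 to 415, also above every control.

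ctss2.1 (ENSORLG00000015733), annotated as a second cathepsin S gene, had 395.5, 426 and 513 counts in the controls and 3082, 5905 and 1010.2 at the low dose. Every low-dose library again exceeded every control. The log2 fold change was 2.58 ± 0.42 (limma adjusted p = 0.000359), and 1.19 with low-dose replicate 3 alone. ctsh, which encodes the aminopeptidase cathepsin H, had 62.6, 53.6 and 89.1 counts in the controls and 393, 733 and 100.6 at the low dose. It rose by 2.18 ± 0.50 (limma adjusted p = 0.00294), but low-dose replicate 3 lay close to the controls, and the value there was 0.58 (limma adjusted p = 0.36). ctsa, the carboxypeptidase that protects other lysosomal hydrolases, rose by 0.64 ± 0.24 (limma adjusted p = 0.0397). That call was lost without control replicate 1, control replicate 2 or low-dose replicate 2, at 0.46, 0.60 and 0.55, and with low-dose replicate 3 alone, at 0.64.

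ctsc and CTSO fell at the low dose. ctsc, the dipeptidyl peptidase cathepsin C, had 1139, 1455 and 953.5 counts in the controls and 519.8, 498 and 866 at the low dose. It fell by 0.94 on the log2 scale (SE 0.22, limma adjusted p = 0.00311), and low-dose replicate 3 was the nearest to the controls. With that library alone the value was -0.43 and missed the threshold (limma adjusted p = 0.263). CTSO fell by 0.68 (SE 0.24, limma adjusted p = 0.0305), a call lost without control replicate 1 or 2 or low-dose replicate 1 (-0.58, -0.56 and -0.59) and with low-dose replicate 3 alone (-0.58). The abundant cathepsins did not pass the test at the low dose: ctsd, the aspartic protease that in fish oocytes cleaves vitellogenin, had a log2 fold change of -0.45 ± 0.20, ctsla, a cathepsin L gene, 0.25 ± 0.17, and ctsba, a cathepsin B gene, 0.22 ± 0.18. ctsf, ctsk and ctsz had -0.16 ± 0.23, 0.08 ± 0.20 and -0.46 ± 0.25.

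The level of ctss followed that of the oocyte markers from library to library, a pair chosen after the values were seen. Per 1000 summed oocyte marker counts there were 54.2 to 94.6 ctss counts in the controls and 85.7 to 107 in the other 12 libraries. Over the same 15 libraries the oocyte marker sum spanned 940-fold and ctss 1751-fold. The ratio was 94.5, 107 and 101 in the 3 low-dose libraries. Markers of leukocytes, the cells in which mammalian cathepsin S is best known, summed to 3087 to 3740 in the controls and 1912 to 3822 at the low dose. Of these 15 markers, 2 were higher and 3 lower, where 24.9% of all genes were higher and 22.9% lower. The part of either cell type in the rise was not tested.

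**Figure D2:**
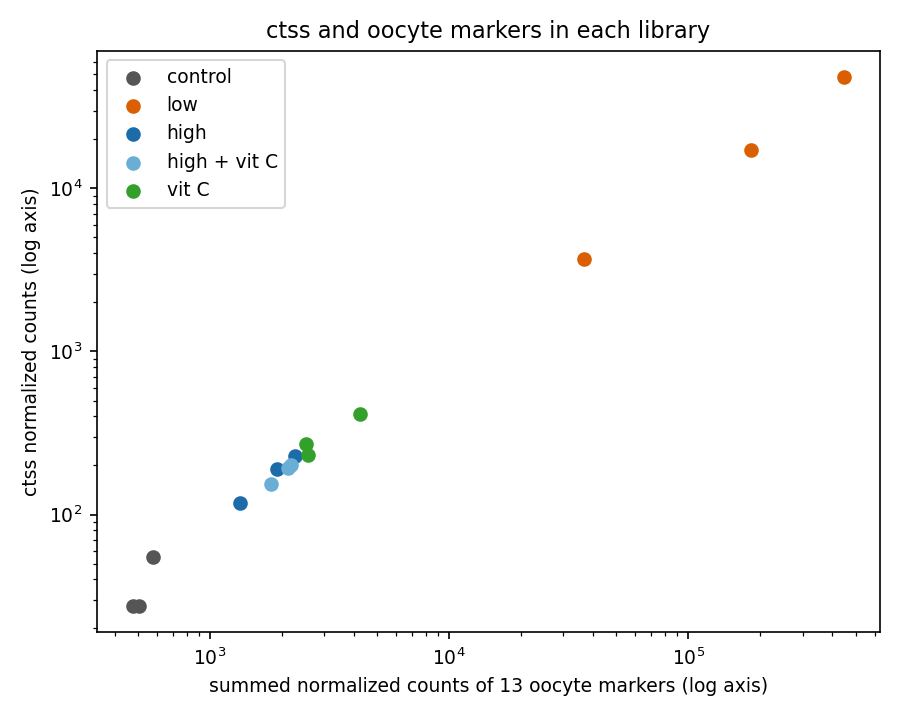
Normalized counts of ctss against the summed normalized counts of 13 oocyte markers, 1 point per library, both axes logarithmic, coloured by group. The points lie along 1 band from the controls (27.5 to 54.8 ctss counts) through the high-dose and vitamin C libraries to the low-dose libraries (3682 to 48094).

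Among the membrane proteins and channels, 1 of 8 tested genes rose at the low dose and 2 fell (all genes: 24.9% and 22.9%). mcoln2 (ENSORLG00000005977) encodes a mucolipin, one of the TRPML cation channels of endosomes and lysosomes. It had 32.9, 31.1 and 40.9 counts in the controls and 2679, 6925 and 521 at the low dose. The low-dose libraries kept the order seen for ctss, all far above the controls. The rise was 5.90 ± 0.59 on the log2 scale (limma adjusted p = 3.57e-06), and 3.87 with low-dose replicate 3 alone. Of the 3 related channel genes tested, both MCOLN3 genes fell, and mcoln1a had -0.23 ± 0.23, not past the test. The MCOLN3 gene ENSORLG00000010913 had 259.8, 409.9 and 206 counts in the controls and 81.9, 38.3 and 117 at the low dose, and fell by 1.95 (SE 0.36, limma adjusted p = 0.000829). A second gene under the symbol MCOLN3, ENSORLG00000017722, fell by 2.25 (SE 0.62, limma adjusted p = 0.00783), with 51.2, 43.1 and 359 counts at the low dose against 325 to 526 in the controls. Low-dose replicate 3 of that gene lay within the control range, and with it as the only low-dose library the value was -0.31. The membrane glycoprotein genes lamp1b and lamp2 had log2 fold changes of -0.03 ± 0.20 and 0.55 ± 0.39, neither past the test.

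In the lipid group, 2 of 6 tested genes rose at the low dose and 1 fell (all genes: 24.9% and 22.9%). npc2.1 encodes the NPC2 protein, which carries cholesterol inside the lysosome and hands it to NPC1. Its counts were 512, 533 and 651 in the controls and 3827, 6921 and 1183 at the low dose. All low-dose libraries were above all controls, and the log2 fold change was 2.48 ± 0.41 (limma adjusted p = 0.000384), or 1.07 with low-dose replicate 3 alone. Its partner npc1 did not pass the test (0.15 ± 0.19). NPC1L1, which in mammals takes up cholesterol at the intestinal surface, had 1.2 to 10.7 counts in the controls and 12.3 to 45.5 at the low dose. The rise was 2.21 ± 0.68 (limma adjusted p = 0.0151). Its control mean was under the filter of 10, so the gene entered the tests through other groups, and its rise is a description. psap, the precursor of the saposins that present lipids to the hydrolases, fell by 0.53 (SE 0.17, limma adjusted p = 0.0172), and by 1.04 under quantile normalization. The call of psap at the low dose was lost without control replicate 1, control replicate 2 or low-dose replicate 1, at -0.49, -0.44 and -0.47, and with low-dose replicate 3 alone, at -0.30.

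Of 23 tested V-ATPase genes, 5 rose and 4 fell at the low dose, where 24.9% of all genes rose and 22.9% fell. The largest rise was that of atp6v0e1, a small subunit of the membrane sector, with 112, 92.2 and 118 counts in the controls and 952, 2830.1 and 314 at the low dose. Every low-dose library exceeded every control, and the log2 fold change was 3.13 ± 0.51 (limma adjusted p = 0.000351), or 1.54 with low-dose replicate 3 alone. Both genes of the stalk subunit E rose, atp6v1e1a by 1.38 ± 0.36 and atp6v1e1b by 1.37 ± 0.32. Both genes under the symbol ATP6V0C, the proteolipid of the membrane ring, rose as well, ENSORLG00000007201 by 0.70 ± 0.21 and ENSORLG00000011910 by 0.73 ± 0.20. Other subunits of the same complex fell: atp6v1b2 by 1.21 (SE 0.48), atp6v0d1 by 0.93 (SE 0.21) and the regulatory subunit gene atp6v1h by 0.63 (SE 0.19). atp6v0a1b fell as well, from 49.6 to 66.0 counts in the controls to 14.4 to 34.5 at the low dose (limma adjusted p = 0.00278). The call of atp6v1h was lost without control replicate 1, low-dose replicate 1 or low-dose replicate 2, at -0.58, -0.50 and -0.50. With low-dose replicate 3 alone, atp6v0d1 (-0.45, limma adjusted p = 0.208) and atp6v1h (-0.10) both missed the threshold. The accessory genes atp6ap1a, atp6ap1b, atp6ap1lb and atp6ap2 had log2 fold changes of -0.47 to 0.27, none past the test at this dose. By an unadjusted p under 0.05, 8 V-ATPase subunits were higher and 4 lower, a measure whose share over all genes is not given here. DESeq2 called 8 higher and 3 lower, as did edgeR. Of all 17778 genes, DESeq2 called 4851 higher and 3922 lower, and edgeR 4750 and 3299.

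Of 13 tested glycosidase genes, 3 rose and 1 fell at the low dose (all genes: 24.9% and 22.9%). GBA2 and gba3, glucosylceramide-type glucosidases that act outside the lysosome in mammals, rose by 1.26 ± 0.23 and 1.37 ± 0.34. gba, the lysosomal glucocerebrosidase, rose by 0.62 ± 0.19 (limma adjusted p = 0.0153), with 105.9 to 139 counts in the controls and 161 to 204 at the low dose. glb1l fell by 1.30 (SE 0.46). The beta-hexosaminidase genes hexa and hexb, the most abundant of the group by their means of 330 and 548 counts in the controls, had -0.37 ± 0.23 and -0.10 ± 0.17. Among the CLN genes, cln8 rose by 1.69 ± 0.32 and cln6a by 0.76 ± 0.23, while cln3 did not pass the test. CLN8 and CLN6 are proteins of the endoplasmic reticulum that in mammals help newly made lysosomal enzymes leave for the Golgi. cln8 had 189.6 to 210.0 counts in the controls and 731, 1174 and 306 at the low dose, above every control in every library, but with low-dose replicate 3 alone its rise of 0.63 missed the threshold (limma adjusted p = 0.068). The call of cln6a was lost without low-dose replicate 2 (0.48) and with low-dose replicate 3 alone (0.22).

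**Figure D3:**
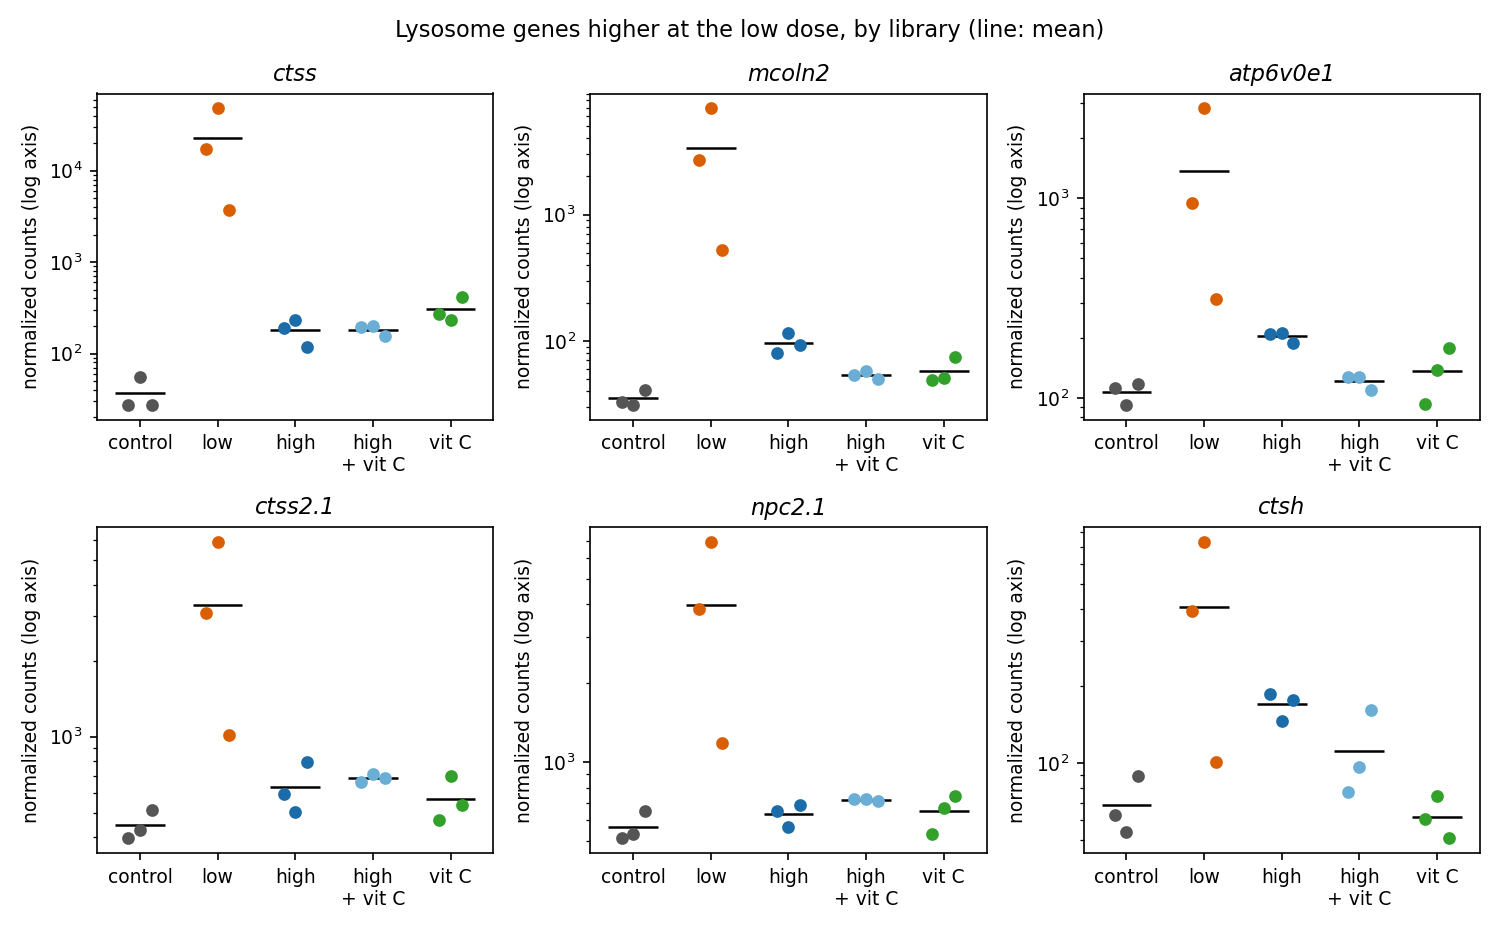
Normalized counts of lysosome genes that were higher at the low dose, by library and group on a logarithmic axis, with the group mean as a line. The low-dose libraries lie above the controls in each panel and spread widely, as for ctss, at 3682 to 48094 counts.

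The order of the low-dose libraries was nearly the same in all these rises. Replicate 2 was the highest, replicate 1 the next and replicate 3 the lowest in 16 of the 18 genes that rose, 88.9%, and in 90.2% of the 4423 genes of the whole table that rose. The opposite order held in 6 of the 10 lysosome genes that fell and in 72.0% of the 4076 genes that fell. The gain over the control mean was set against the oocyte marker sum of the same library. For ctss the gain was 94.3, 107 and 99.99 counts per 1000 oocyte marker counts in replicates 1, 2 and 3, for mcoln2 it was 14.5, 15.4 and 13.3, and for npc2.1 17.9, 14.2 and 16.9. These ratios stayed within 1.5 times over the 3 libraries in 10 of the 18 genes. They did not for ctsa, gba and NPC1L1, whose ratios differed 8.95-, 6.06- and 7.91-fold. The ratios were not computed for the other genes that rose, so the count of 10 describes these 18 genes only. The part of the oocyte markers in these rises was not tested.

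At the high dose, 7 of the 67 tested lysosome genes rose against the control and 10 fell. The shares were 10.4% and 14.9%, below the 18.3% of all genes called higher and the 20.5% called lower. The falls included genes of the pump, of cathepsins D and L, of the saposin precursor and of a lysosomal membrane glycoprotein, while the 7 rises were spread over small groups. The medians were 0.02 for the lysosome genes and 0.05 for all genes. With the libraries scaled on abundant genes, 16 lysosome genes were higher and 4 lower, where 5619 and 1837 of all 17778 genes were. The 7 rises became 3 without control replicate 1, 4 without control replicate 2, 3 without high-dose replicate 2 and 4 without high-dose replicate 3. In the same fits, the 3248 rises among all genes became 2204, 2155, 2100 and 2730.

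psap showed one of the clearest falls. Its counts were 8941, 9525 and 7024 in the controls and 4484, 3550.2 and 4107 at the high dose. Every high-dose library was below every control, and the log2 fold change was -1.06 ± 0.17 (limma adjusted p = 0.000301). It was -0.69 with scaling on abundant genes, and still past the threshold. Relative to the median of all genes it was -1.11 under both scalings. That agreement was fixed beforehand, since 1 factor per library shifts all genes nearly equally.

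Of the 23 V-ATPase genes, 1 rose and 4 fell at the high dose, where 18.3% of all genes rose and 20.5% fell. The genes of ATP6AP1, an accessory protein needed to assemble the pump, fell together. atp6ap1b had 232, 222 and 159 counts in the controls and 63.2, 88.6 and 84.0 at the high dose, and atp6ap1a had 562, 574 and 436 in the controls and 218, 224 and 298 at the high dose. For both, no high-dose library reached the lowest control. The log2 fold changes were -1.36 ± 0.21 (limma adjusted p = 0.000276) for atp6ap1b and -1.09 ± 0.23 (limma adjusted p = 0.00213) for atp6ap1a. atp6v0d1, which couples the membrane ring to the rotor, had 4000, 4194 and 3157 counts in the controls and 2100, 1499 and 2151 at the high dose. It fell by 0.99 (SE 0.21, limma adjusted p = 0.00206), beside 0.93 at the low dose with the same controls, a value that was -0.45 and not called with low-dose replicate 3 alone. atp6v1h fell by 0.72 (SE 0.19, limma adjusted p = 0.00808). The 1 rise was that of atp6ap1lb, with 18.8 to 27.4 counts in the controls and 28.7, 123 and 62.7 at the high dose (1.43 ± 0.43, limma adjusted p = 0.0167).

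Of the 12 cathepsin genes, 2 rose and 4 fell at the high dose (all genes: 18.3% and 20.5%). ctsla had 2601, 2669 and 2609 counts in the controls and 1606, 1761 and 1841 at the high dose, and fell by 0.60 (SE 0.17, limma adjusted p = 0.0124). ctsd had 3854, 4148 and 4270 counts in the controls and 2436, 2968 and 3209 at the high dose, and fell by 0.52 (SE 0.20, limma adjusted p = 0.0467). For both genes the groups did not overlap. CTSO fell by 0.92 (SE 0.24) and ctsc by 0.72 (SE 0.22). ctss rose by 2.28 ± 0.61 (limma adjusted p = 0.00878), with 189.6, 229.9 and 117 counts at the high dose, and ctsh by 1.32 ± 0.50 (limma adjusted p = 0.0478), with 187, 146 and 176 counts. The oocyte marker sum was higher at the high dose too, and 7 of 13 oocyte markers and 5 of 15 leukocyte markers rose, with leukocyte sums of 3682 to 5534. Whether either moved ctss was not tested.

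The falls of ctsla, ctsd, ctsc and atp6v1h lost their call with scaling on abundant genes, at -0.22, -0.14, -0.34 and -0.34, and with quantile normalization, at -0.36, -0.40, -0.40 and -0.48. CTSO and lamp1b lost theirs with the first of these, at -0.55 and -0.40. ctsc lost its call also without control replicate 2 and without high-dose replicate 2 (-0.56 and -0.55). The calls of ctsd and ctsh, near the threshold, were lost in 5 of 6 fits that left out 1 library each, ctsd at -0.40 to -0.56 and ctsh at 1.17 to 1.43.

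In the remaining groups, lamp1b, a membrane glycoprotein gene, was the only one of 8 membrane and channel genes called at the high dose. It had 264, 263 and 208 counts in the controls and 167, 140.0 and 122 at the high dose, with no overlap, and fell by 0.78 (SE 0.20, limma adjusted p = 0.00606). mcoln2 had 80.4, 116 and 92.5 counts, above every control, but its 1.43 ± 0.59 missed the threshold (limma adjusted p = 0.0659). That SE is pooled over all groups, the widely spread low-dose libraries included. Of 13 glycosidase genes, 3 rose, where 18.3% of all genes rose and 20.5% fell. They were gla, the alpha-galactosidase gene, by 1.10 ± 0.40, GBA2 by 0.70 ± 0.23 and man2b1, an alpha-mannosidase gene, by 0.62 ± 0.15. NPC1L1 rose by 2.88 ± 0.68, from 1.2 to 10.7 counts in the controls to 25.9, 80.3 and 19.1. Since it passed the filter of 10 through groups other than the control, this rise is a description. Markers of kidney and gut epithelium summed to 1255 to 2601 in the controls and 3766 to 5953 at the high dose, where 5 of 17 rose and 1 fell; their part in the rise of NPC1L1 was not tested.

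**Figure D4:**
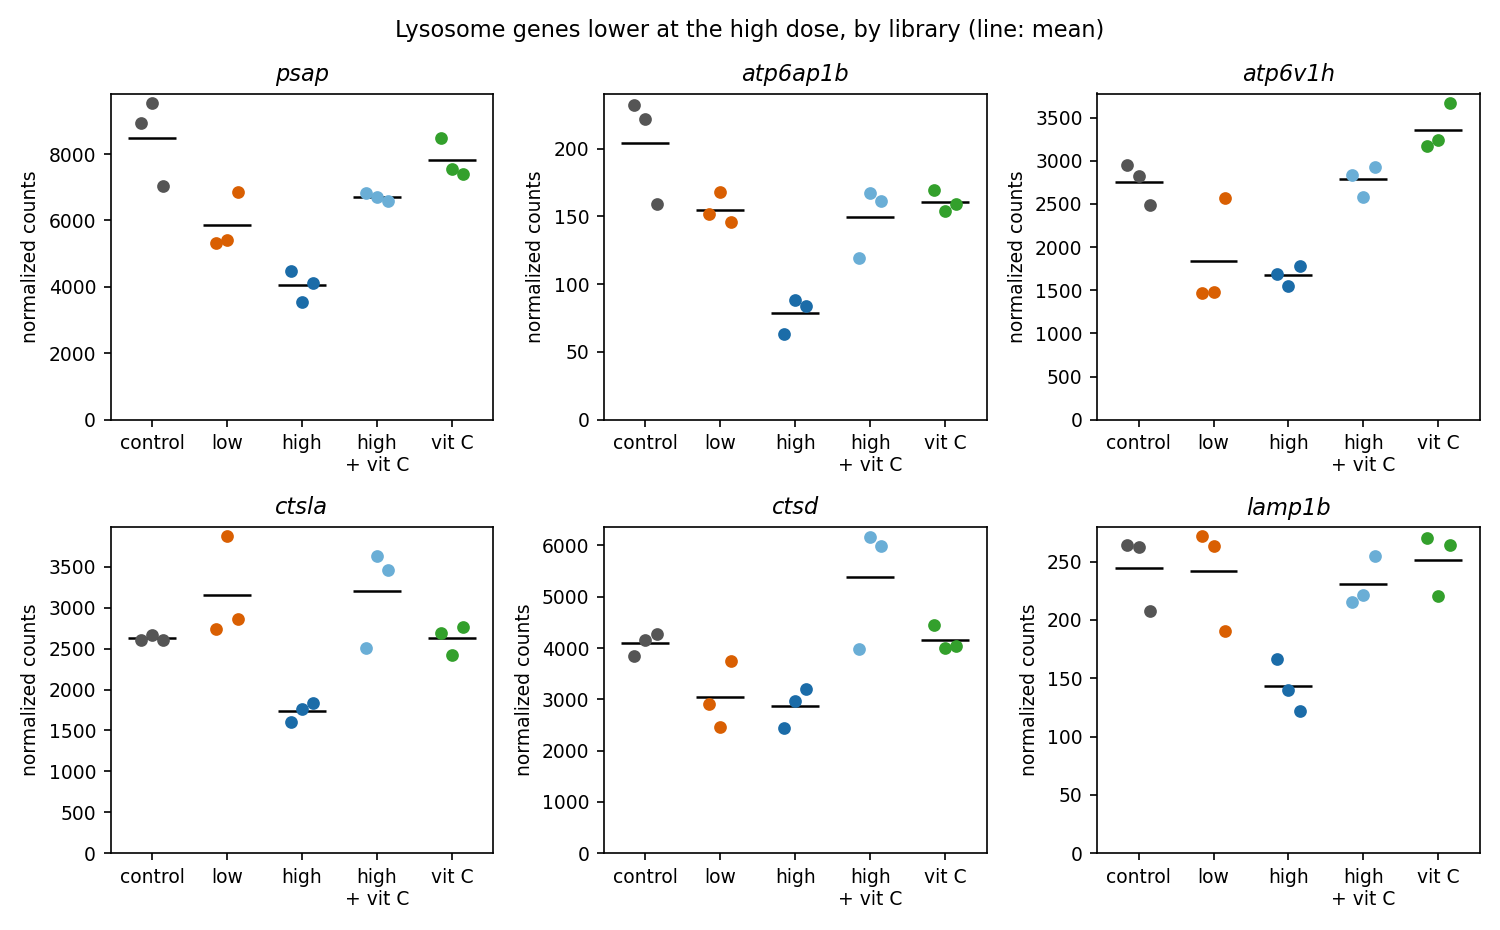
Normalized counts of the 6 lysosome genes called both lower at the high dose and higher with vitamin C added, by library and group. Axes are linear from 0, with the group mean as a line. The high-dose libraries lie below the controls in every panel, and those with vitamin C added lie above them. The genes shown were those with both calls, so this pattern follows from the choice. atp6ap1a, atp6v0d1, CTSO and ctsc also fell at the high dose, were not called with vitamin C added and are not shown.

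The doses were compared directly as well, high against low. The high dose had 7 of the 67 genes higher and 22 lower than the low dose, 10.4% and 32.8%, where 22.4% and 26.1% of all genes were. ctss was lower at the high than at the low dose by 6.39 (SE 0.61) on the log2 scale, mcoln2 by 4.47 (SE 0.59), npc2.1 by 2.32 (SE 0.41), atp6v0e1 by 2.21 (SE 0.51) and ctss2.1 by 2.09 (SE 0.42). ctsla (-0.85 ± 0.17), lamp1b (-0.75 ± 0.20), atp6ap1a (-1.36 ± 0.23) and atp6ap1b (-0.98 ± 0.21), which were called lower against the control at the high dose and not at the low dose, also differed between the doses. For ctsd (-0.07 ± 0.20), ctsc (0.22 ± 0.22), atp6v0d1 (-0.06 ± 0.21) and atp6v1h (-0.09 ± 0.19) the difference between doses did not pass the test. With low-dose replicate 3 as the only low-dose library, the ctss2.1, atp6v0e1 and lamp1b differences were -0.71, -0.62 and -0.42. That of atp6v1h was then -0.62.

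Against the shared controls, 9 lysosome genes were called at both doses, 4 higher at both (ctss, ctsh, GBA2 and NPC1L1) and 5 lower at both (psap, atp6v0d1, atp6v1h, ctsc and CTSO). Since both comparisons use the same control libraries, this count is a description, and NPC1L1 passed the filter only through groups other than the control. The share of all genes called at both doses is not given here.

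With vitamin C added to the high dose, 7 of the 67 genes were higher than at the high dose alone and 0 were lower, by limma. That is 10.4% higher, where 7.74% of all genes were called higher and 2.64% lower. By an unadjusted p under 0.05, 10 were higher and 3 lower, a measure whose share over all genes is not given here. edgeR called 0 lower and DESeq2 called 2 lower, where they called 795 and 1732 of all 17778 genes lower. The 7 genes were atp6ap1b (0.92 ± 0.21), ctsd (0.89 ± 0.20), ctsla (0.87 ± 0.17), psap (0.74 ± 0.17), atp6v1h (0.73 ± 0.19), lamp1b (0.69 ± 0.20) and the V-ATPase subunit gene atp6v1f (0.49 ± 0.14), the last named to complete the count. Apart from atp6v1f these had fallen at the high dose against the control, a comparison that shares the high-dose libraries. The other genes that fell at the high dose, atp6ap1a, atp6v0d1, CTSO and ctsc, were not called higher with vitamin C added.

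psap had 6820, 6718 and 6584 counts at the high dose with vitamin C, against 3550.2 to 4484 at the high dose alone and 7024 to 9525 in the controls. The vitamin C libraries lay between the other groups without overlap. ctsd had 3973, 6174 and 5999 counts with vitamin C added, and ctsla 2512, 3636 and 3463. Replicate 1 was the lowest in both genes, and still above every high-dose library. The count of 7 was 3 without high-dose replicate 2 and 1 without replicate 2 or without replicate 3 of the group given both agents. Among all genes, the 1376 higher became 391, 486 and 409 in these fits. Of the 6 fits without 1 library, lamp1b lost its call in 5, atp6v1h in 4, psap in 3, ctsd and atp6ap1b in 2 each and ctsla in 0. Against the control, the group given both agents had 1 gene higher, ctss (2.36 ± 0.61, limma adjusted p = 0.0457), and 0 lower, with 2.36% of all genes called higher and 1.26% lower. DESeq2 called 2 higher and 1 lower, and edgeR 1 and 0. Of all 17778 genes, DESeq2 called 1018 higher and 915 lower, and edgeR 590 and 200. By an unadjusted p under 0.05, 4 were higher and 10 lower, with no share over all genes given here, so these 2 counts are a description. That call of ctss was lost without any 1 of the 6 libraries, at 2.19 to 2.68.

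Vitamin C alone left the lysosome genes with 1 call. ctss rose by 3.06 ± 0.61 (limma adjusted p = 0.0394), with 269, 231 and 415 counts, above every control. No gene fell by limma, and 0 fell by edgeR, by DESeq2 or by an unadjusted p under 0.05. Of all 17778 genes, limma called 0.304% higher and 0.101% lower, while edgeR called 18 lower and DESeq2 123. The oocyte marker sum was 2525 to 4252 in these libraries, and 5 of 13 oocyte markers rose. The call was lost without any 1 of the 6 libraries, at 2.81 to 3.38, and with edgeR (3.13, adjusted p = 0.0545). The SE of ctss, 0.61, was also that at the low dose, because 1 spread per gene was estimated over all 15 libraries. It therefore holds the wide low-dose spread and is not that of the compared groups alone. ctsk, a cathepsin that in mammals degrades bone collagen, had 399.8, 317 and 315 counts with vitamin C alone and 205, 151 and 189.6 in the controls. The groups did not overlap, but the log2 fold change of 0.92 ± 0.20 missed the threshold (limma adjusted p = 0.0599).

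Whether the effect of the high dose differed with vitamin C was tested as an interaction, the high-dose change in the presence of vitamin C minus the change in its absence. It was positive for 3 lysosome genes and negative for 2, where 5.6% of all genes were positive and 2.47% negative. The positive ones were atp6ap1b (1.24 ± 0.30), ctsla (0.87 ± 0.24) and psap (0.84 ± 0.24), and the negative ones ctss (-2.98 ± 0.87) and ctsk (-0.99 ± 0.28). With the replicate number as a block, psap (adjusted p = 0.061) and ctsk (adjusted p = 0.0528) lost their calls. Of 12 fits that left out 1 library each, the call was lost in 12 for ctss, 11 for ctsla, 10 for ctsk, 9 for psap and 6 for atp6ap1b.

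The lysosome genes together took 0.528% to 0.532% of all reads in the controls and 0.571% to 0.836% at the low dose. In low-dose replicates 1, 2 and 3 the share was 0.647%, 0.836% and 0.571%, of which ctss alone took 0.153%, 0.324% and 0.0412%. Without ctss, no low-dose library exceeded the highest control. At the high dose the share was 0.420% to 0.464%, below every control, and with vitamin C added it was 0.518% to 0.567%. With vitamin C alone it was 0.525% to 0.535%.

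In none of the 7 comparisons were 23 of the 67 tested genes called. They included ctsba, ctsf, ctsz and tpp1 among the proteases, hexb, glb1 and neu1 among the glycosidases, and npc1, asah1b and smpd1 among the lipid genes. Their log2 fold changes ran from -0.46 to 0.78 at the low dose and from -0.40 to 0.46 at the high dose. The share of all genes without any call is not given here, so the count of 23 is a description. The steadiest gene was asah1b, an acid ceramidase gene, at 831 to 1146 counts over all 15 libraries, a 1.38-fold span, against 1751-fold for ctss. The 3 remaining genes were too low to test. For ctsbb, a second cathepsin B gene, there were 1 to 2 reads in each control library, 4, 48 and 59 at the high dose, and at most 8 in the other libraries. ctss1 had 0 to 29 reads and LAMP5 0 to 46.

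Genes of the lysosome outside this set were taken from 3 lists, to be read against all 17778 genes, of which the low dose had 24.9% higher with 22.9% lower, while the high dose had 18.3% higher with 20.5% lower. Of 37 tested hydrolases, 16 rose and 6 fell at the low dose, and 2 rose and 6 fell at the high dose. These are 43.2% and 16.2% at the low dose and 5.41% and 16.2% at the high dose. Among them acp5a, a tartrate-resistant acid phosphatase gene, rose by 7.58 ± 0.45 at the low dose, acp2, the lysosomal acid phosphatase gene, by 1.47 ± 0.27 and gm2a, the activator that presents ganglioside, by 1.85 ± 0.35. At the high dose the sulfatase genes sgsh and arsa fell by 0.88 (SE 0.16) and 1.05 (SE 0.20), and ggh, a gamma-glutamyl hydrolase gene, by 1.62 (SE 0.35). sgsh was higher with vitamin C added by 1.06 ± 0.16.

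Of 31 tested membrane and transport genes, 13 rose and 9 fell at the low dose, and 1 rose and 6 fell at the high dose. The shares were 41.9% and 29.0%, and 3.23% and 19.4%, the last near that of all genes. slc38a7 and mfsd8, lysosomal transporter genes, rose at the low dose by 2.44 ± 0.41 and 2.22 ± 0.42, and ABCA2 fell by 1.44 (SE 0.28). At the high dose tmem106ba, a lysosomal membrane protein gene, fell by 1.42 (SE 0.19), SIDT2, whose product takes nucleic acids into lysosomes, by 1.43 (SE 0.20), and SLC36A1, a proton-coupled amino acid transporter gene, by 1.13 (SE 0.19).

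Of 42 tested genes for delivery to the lysosome and its regulation, 20 rose and 13 fell at the low dose, and 2 rose and 11 fell at the high dose, which is 47.6% and 31.0%, and 4.76% and 26.2%. gnptg, a subunit of the enzyme that starts the mannose 6-phosphate tag, rose at the low dose by 2.84 ± 0.53. vps11, of the complexes that tether late endosomes, rose too, from a mean of 391 to 2110 counts. mitfb, of the transcription factor family that drives lysosome genes in mammals, fell by 1.45 (SE 0.29). igf2r, the receptor for mannose 6-phosphate, fell at the high dose by 1.28 (SE 0.19), and RPTOR, the scaffold of mTORC1, by 1.09 (SE 0.18). igf2r was higher with vitamin C added by 0.88 ± 0.19. Of 3 tested cathepsin inhibitor genes, 2 rose at both doses: cst14a.2, a cystatin gene, by 0.68 ± 0.22 and 1.29 ± 0.22, and serpinb1, a serpin gene, by 0.76 ± 0.26 and 1.30 ± 0.26. Both were lower with vitamin C added to the high dose, by 0.81 (SE 0.22) and 1.23 (SE 0.26) on the log2 scale. The 2 doses share the controls, and the comparison with vitamin C shares the high-dose libraries. The share of all genes that rose at both doses is not given here, so these inhibitor calls are a description.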

How the data were processed

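The deposited table gives, per gene and library, a signal that is a read count normalized by the authors. The submitters' processing notes name the tools DESeq2 1.34.0, STAR 2.7.7a and fastp 0.23.2. For genome build, counting and strand setting nothing is given in the sources used here. How reads were split between genes with shared or similar symbols (ctss, ctss1 and ctss2.1, both ATP6V0C genes, both MCOLN3 genes) is therefore uncertain. Their sequences were not compared. Counts of overlapping or antisense genes are uncertain too. Divided by the smallest step of its library, 100% of 345420 values came out as whole reads (tolerance 0.001), which gave a depth of 3.21 to 21.3 M reads.

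The main test was limma 3.58.1 (R 4.3.3) with a mean trend on log2(value + 1), so fold changes of low genes are understated. All 15 libraries and 17778 genes with a mean of at least 10 entered 1 fit with 7 contrasts, and p-values were adjusted by Benjamini-Hochberg over all genes. The fit estimates 1 spread per gene, so the SE of a contrast also holds the spread of groups outside it. edgeR 4.0.16 (quasi-likelihood) and DESeq2 1.42.0 on the recovered reads were alternatives, beside other pseudocounts, filters, scalings, leaving out libraries and a replicate block. The fit was tested on simulated data. Same-numbered libraries of the high dose alone and of the high dose plus vitamin C deviated together (correlations 0.361, 0.198 and 0.124). Numbers were therefore taken to pair these groups, though the labels state no pairing. No other pair of groups had all 3 correlations above 0.1. The main fit did not use this pairing. The replicate block put its effects on all groups, so it is not a test of this pair alone.

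The lysosome genes and the marker lists were chosen with earlier results of these data known. Named are all cathepsins, in each comparison up to 6 called genes with the largest change and a mean of at least 50, the 2 most abundant genes of each role, and for each list up to 3 called genes, taken by smallest adjusted p; others named were chosen after their values were seen. The results of 1 member gene are not reported here by name.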

Additional observations from a re-analysis of the deposited data

Results flagged for a closer look

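By limma's interaction term, the effect of the high perchlorate dose was called different with vitamin C in 5 of 67 lysosome genes. It was positive in 3 and negative in 2, where 5.6% of all genes were positive and 2.47% negative. The values are the high-dose log2 change with vitamin C minus the change without it. For atp6ap1b the difference was 1.24 ± 0.30 (limma adjusted p = 0.0256): the group means were 204 counts in the control, 78.6 at the high dose, 149 at the high dose with vitamin C and 161 with vitamin C alone. For ctsla it was 0.87 ± 0.24 (limma adjusted p = 0.0416), with 2626, 1736, 3204 and 2628 counts in the same order. For psap it was 0.84 ± 0.24 (limma adjusted p = 0.0429), with 8497, 4047, 6707 and 7825 counts.

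For ctsk the difference was -0.99 ± 0.28 (limma adjusted p = 0.0432). Its group means were 182, 213, 204 and 344 counts in that order, and vitamin C alone was the high group. For ctss it was -2.98 ± 0.87 (limma adjusted p = 0.0472), with 36.6, 179, 183 and 305 counts. The oocyte marker sums in the same groups were 476 to 579, 1340 to 2274, 1801 to 2188 and 2525 to 4252, and their part was not tested. Of 12 fits without 1 library, 12 lost the call of ctss, 11 of ctsla and 10 of ctsk. The calls of psap and atp6ap1b were lost in 9 and 6. With the replicate number as a block, psap and ctsk lost theirs.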

How the results depend on the processing

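Of 52 calls of named lysosome genes, 16 held under every alternative run, and none reversed. Counts of members are given as higher or lower genes in each comparison. Counts over all 17778 genes moved too. At the low dose they were 6105 higher and 2461 lower with scaling on abundant genes. With only the groups compared they were 1905 and 1345. Such fits gave 3896 of all genes higher at the high dose, and 895 higher and 1673 lower for high against low dose. Interactions over all genes were then 2838 positive and 2217 negative, in place of 996 and 440. Scaling on abundant genes (control mean of 500 or more) gave 33 higher and 5 lower genes for the low dose (18 and 10 as reported), 16 and 4 at the high dose (7 and 10), 2 higher for the group given both agents against control (1), and 0 positive interactions (3). A fit of only the groups compared gave 7 higher and 2 lower genes for the low dose, 12 higher at the high dose, 0 higher and 7 lower for high against low dose (7 and 22), 3 lower with vitamin C added to the high dose (0), 3 higher and 9 lower for both agents against control (1 and 0), 2 higher with vitamin C alone (1), and 8 positive and 8 negative interactions (3 and 2). For low-dose replicate 3 as the only low-dose library, counts are not given, since 1 library is left in the group. A mean of at least 50 gave 3 higher at the high dose, 4 higher for high against low dose, and 0 higher for both agents or vitamin C alone against control. Of the 12958 genes in that fit, 1336, 1966, 141 and 40 were higher in the same order. Quantile normalization gave 6 lower at the high dose, 12 higher for high against low dose, 2 lower with vitamin C added to the high dose and 1 positive interaction. The matching counts over all genes were 3308, 4539, 906 and 937. No filter gave 1 lower with vitamin C added, 1 positive and 0 negative interactions, where 442, 807 and 386 of the 23028 genes in that fit were called. DESeq2 gave 2 lower with vitamin C added, 2 higher and 1 lower for both agents against control, 2 higher with vitamin C alone and 5 positive interactions. Its matching counts over all genes were 1732, 1018, 915, 134 and 1791. A pseudocount of 5 gave 0 higher for both agents and for vitamin C alone against control, and 1 negative interaction. Over all genes it gave 312, 41 and 456. edgeR gave 0 higher with vitamin C alone, and 48 over all genes. Some of these settings hold fewer genes or libraries, and the cause of the shifts was not tested.

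The replicate block gave 1 negative and 2 positive interactions in place of 2 and 3, losing ctsk and psap, and changed no other call among the high-dose groups with and without vitamin C (7 higher). Over all genes the block gave 376 negative and 746 positive interactions, in place of 440 and 996. ctsh at the high dose against control, where numbers were not taken to pair samples, lost its call under the block (1.32, limma adjusted p = 0.0597).

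Leaving out 1 library at a time gave ranges of 12 to 28 higher genes and 5 to 13 lower ones for the low dose, 3 to 7 higher at the high dose, 1 to 6 higher with vitamin C added, 0 to 1 higher and 0 to 2 lower for both agents against control, 0 higher with vitamin C alone, 0 to 3 positive interactions and 0 to 1 negative ones. Over all genes the low dose had 3137 to 5667 higher and 2907 to 5254 lower. The high dose had 2100 to 3330 of all genes higher, and 391 to 1153 were higher with vitamin C added. For both agents against control 44 to 609 of all genes were higher and 1 to 528 lower, and with vitamin C alone 6 to 59 were higher. Interactions over all genes were 92 to 1263 positive and 35 to 577 negative. In these fits the interaction of atp6ap1b was 1.14 to 1.24 where its call was lost, and that of ctsk was -0.87 to -1.09. The low-dose libraries hold 5.48 to 6.19 M reads, and genes with few reads, such as ctsbb, could not be compared.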
